A study of Mus musculus with 1298 samples.

Results

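The levels of 10 Sox genes, Sox2, Sox4, Sox5, Sox6, Sox8, Sox9, Sox10, Sox11, Sox12 and Sox18, were followed through single cells and bulk cells of the Pax7 lineage of the mouse embryo. They were chosen by name from the 17634 genes of the 10x table, the 22894 genes of the Smart-seq2 (ss2) table and the 22938 genes of the bulk table, and all 10 are in each. The embryos were Pax7-CreER; R26R-stop-EYFP. Tamoxifen at 75 µg/g body weight was given to the pregnant mouse at E9.5, and YFP+ cells were sorted on days E12.5, E14.5 or E16.5 from trunks without head, limbs and viscera. Each day was measured by 10x in 1 library and by ss2. The titles of the ss2 cells carry a day with a b number, in 15 combinations, and the cells of each are called a plate here. The labels do not say what the b stands for. Cells of several embryos were pooled before sorting. A 10x library or the ss2 plates of a day are called a pool here, which gives 6 pools. The bulk libraries used are 2 of Pdgfra-/Cd36+ YFP+ cells sorted at E16.5 and not cultured, numbered as replicates in the labels and called technical duplicates in the methods of the study. Recombination depends on the Pax7 promoter at the time of tamoxifen, so YFP marks descendants of cells that expressed Pax7 then, whatever they express later.

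Sox proteins are transcription factors that bind DNA through a shared HMG box and fall into groups by the similarity of that box. Sox2, a SoxB1 factor, maintains neural progenitors, while the SoxC factors Sox4, Sox11 and Sox12 act in young neurons and in embryonic mesenchyme. The SoxE factor Sox9 and the SoxD factors Sox5 and Sox6 work together on cartilage matrix genes. Sox9 also acts in neural stem cells, and Sox6 is known in muscle as a repressor of slow fibre genes. Sox8, a further SoxE factor, is known from the satellite cells of muscle. Sox10 is the SoxE factor of neural crest, Schwann cells and oligodendrocytes, and Sox18 is a SoxF factor of endothelium and of the dermal condensates of hair follicles.

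The genes differ in how alike their sequences are, and the stretch of each coding sequence that is most alike shows this. It is the run of 79 codons of the Sox2 coding sequence whose amino acids match best in all the other members, with the best matching run of each of them, in the longest coding transcript of GENCODE vM21 on GRCm38. In Sox proteins the part most alike is the HMG box. The stretches of Sox2, Sox11, Sox6, Sox9, Sox8 and Sox18 are printed because each carries a result below, 5′ to 3′ on the coding strand, with capitals at the 78 bases that are identical in all 10 genes.
Sox2: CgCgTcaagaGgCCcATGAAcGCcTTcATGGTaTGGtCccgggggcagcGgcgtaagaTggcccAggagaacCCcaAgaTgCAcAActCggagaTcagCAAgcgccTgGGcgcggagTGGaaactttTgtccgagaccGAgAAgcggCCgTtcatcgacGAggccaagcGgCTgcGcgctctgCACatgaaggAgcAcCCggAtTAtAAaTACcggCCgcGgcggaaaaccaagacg
Sox11: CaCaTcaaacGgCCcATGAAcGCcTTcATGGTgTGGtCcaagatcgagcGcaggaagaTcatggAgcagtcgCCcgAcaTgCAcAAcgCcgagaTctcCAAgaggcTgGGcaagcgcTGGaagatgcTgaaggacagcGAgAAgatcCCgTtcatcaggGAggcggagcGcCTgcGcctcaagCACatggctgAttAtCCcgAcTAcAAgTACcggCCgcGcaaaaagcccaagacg
Sox6: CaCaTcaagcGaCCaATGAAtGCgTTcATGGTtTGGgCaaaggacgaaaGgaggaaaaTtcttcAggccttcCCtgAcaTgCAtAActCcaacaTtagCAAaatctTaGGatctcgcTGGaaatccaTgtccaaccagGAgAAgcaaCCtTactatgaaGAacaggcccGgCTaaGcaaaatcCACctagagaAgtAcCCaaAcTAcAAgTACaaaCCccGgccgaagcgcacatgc
Sox9: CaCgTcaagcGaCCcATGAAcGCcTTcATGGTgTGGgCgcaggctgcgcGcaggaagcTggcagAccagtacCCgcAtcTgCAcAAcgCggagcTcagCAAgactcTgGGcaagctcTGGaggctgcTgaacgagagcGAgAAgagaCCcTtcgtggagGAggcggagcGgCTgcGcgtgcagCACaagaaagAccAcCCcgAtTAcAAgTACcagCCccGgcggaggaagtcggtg
Sox8: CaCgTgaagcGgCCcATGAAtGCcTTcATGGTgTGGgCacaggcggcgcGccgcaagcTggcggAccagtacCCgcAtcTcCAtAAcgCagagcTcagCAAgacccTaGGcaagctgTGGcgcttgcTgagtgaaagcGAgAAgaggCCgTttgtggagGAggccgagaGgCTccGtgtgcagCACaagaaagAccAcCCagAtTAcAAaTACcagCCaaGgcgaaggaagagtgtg
Sox18: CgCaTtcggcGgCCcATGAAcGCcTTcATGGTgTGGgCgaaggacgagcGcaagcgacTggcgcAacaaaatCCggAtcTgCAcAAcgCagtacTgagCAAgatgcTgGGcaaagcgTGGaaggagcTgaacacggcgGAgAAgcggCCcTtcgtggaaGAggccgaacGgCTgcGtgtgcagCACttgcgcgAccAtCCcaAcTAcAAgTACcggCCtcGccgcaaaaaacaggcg
The Sox2 stretch lies in the only exon at chr3:34650539-34650775 on the plus strand, and that of Sox11 in the only exon at chr12:27342031-27342267 on the minus strand. The others are spliced from 2 exons each, and the interval of each holds an intron that is not printed. That of Sox9 spans chr11:112782894-112783923 on the plus strand, and on the minus strand lie those of Sox6 at chr7:115486637-115489771, Sox8 at chr17:25568946-25570231 and Sox18 at chr2:181670869-181671290. The genes themselves are Sox2 (ENSMUSG00000074637.7, chr3:34650405-34652461, plus strand), Sox11 (ENSMUSG00000063632.6, chr12:27334264-27342574, minus strand), Sox6 (ENSMUSG00000051910.13, chr7:115470872-116038796, minus strand), Sox9 (ENSMUSG00000000567.5, chr11:112782224-112787760, plus strand), Sox8 (ENSMUSG00000024176.10, chr17:25565892-25570686, minus strand) and Sox18 (ENSMUSG00000046470.5, chr2:181669836-181671640, minus strand). Within a Sox group the 7 pairs of stretches were 81.4 to 89% identical, and between groups the 38 pairs were 52.3 to 73.4% identical. Over the whole transcripts, the longest run shared without a mismatch was 48 bases within a group and 30 bases between groups. The cDNA reads that the study describes are longer than these runs, so no full-length read lies inside one. Sox5 and Sox6 have antisense transcripts in the annotation, among them Sox6os, as does Sox4 with Gm26735 and Sox8 with 2810468N07Rik. Sox2 lies inside Sox2ot on the same strand. These partners overlap the span of the gene, introns included, and overlap of exons was not examined. Smart-seq2 does not mark the strand. In ss2 and bulk, reads from exons that a gene shares with an antisense partner could thus not be told apart.

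Of 3916 deposited cells 3852 passed the limits of the study (YFP counts among them), with a median of 2185, 5930 and 1607.5 UMIs per 10x cell over the 3 days in order. A kept ss2 cell held a median of between 393416 and 829590 expected counts, depending on the day. The 3 libraries on 10x shared 3 barcode sequences, carried by 6 cells. Clusters were named from marker lists with no Sox gene among them or among the clustering genes, and the names carry "-like". They are EP-like (early progenitor, 10.77% of the cells), LP-like (late progenitor, 20.98%), DF-like (dermal fibroblast, 14.04%), BA-like (brown adipocyte, 4.52%), EM-like and LM-like (early and late muscle, 18.17% and 6.13%), N-like (neuron, 18.33%), NP-like (neural progenitor, 5.58%) and PE-like (pericyte, 1.48%). EP-like cells rest on 3 markers detected in at least 10% of the cells, with none of them among the 10 leading genes, and cartilage genes scored higher there, at 1.19 against 0.871, on 1 detected gene. A cluster of LP-like cells, most of those of E14.5, scored higher for tendon genes than for LP markers, at 2.60 against 1.60, on 2 detected genes. The clusters that make up LP-like and DF-like cells on 10x differ between E14.5 and E16.5. Cells are not replicates, so each class was summed within each pool, and sums of at least 20 cells are reported as CPM, the count of a gene per 1e+06 counts of the sum. Levels of 10x carry exact 95% Poisson intervals and shares of cells exact 95% binomial ones. Both cover counting error only, not the difference between embryos. Fold changes, their SE and adjusted p come from edgeR quasi-likelihood tests over all genes, with Benjamini-Hochberg adjustment. Their p-values measure the spread between pools, of which each day has 1 per platform.

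**Figure D1:**
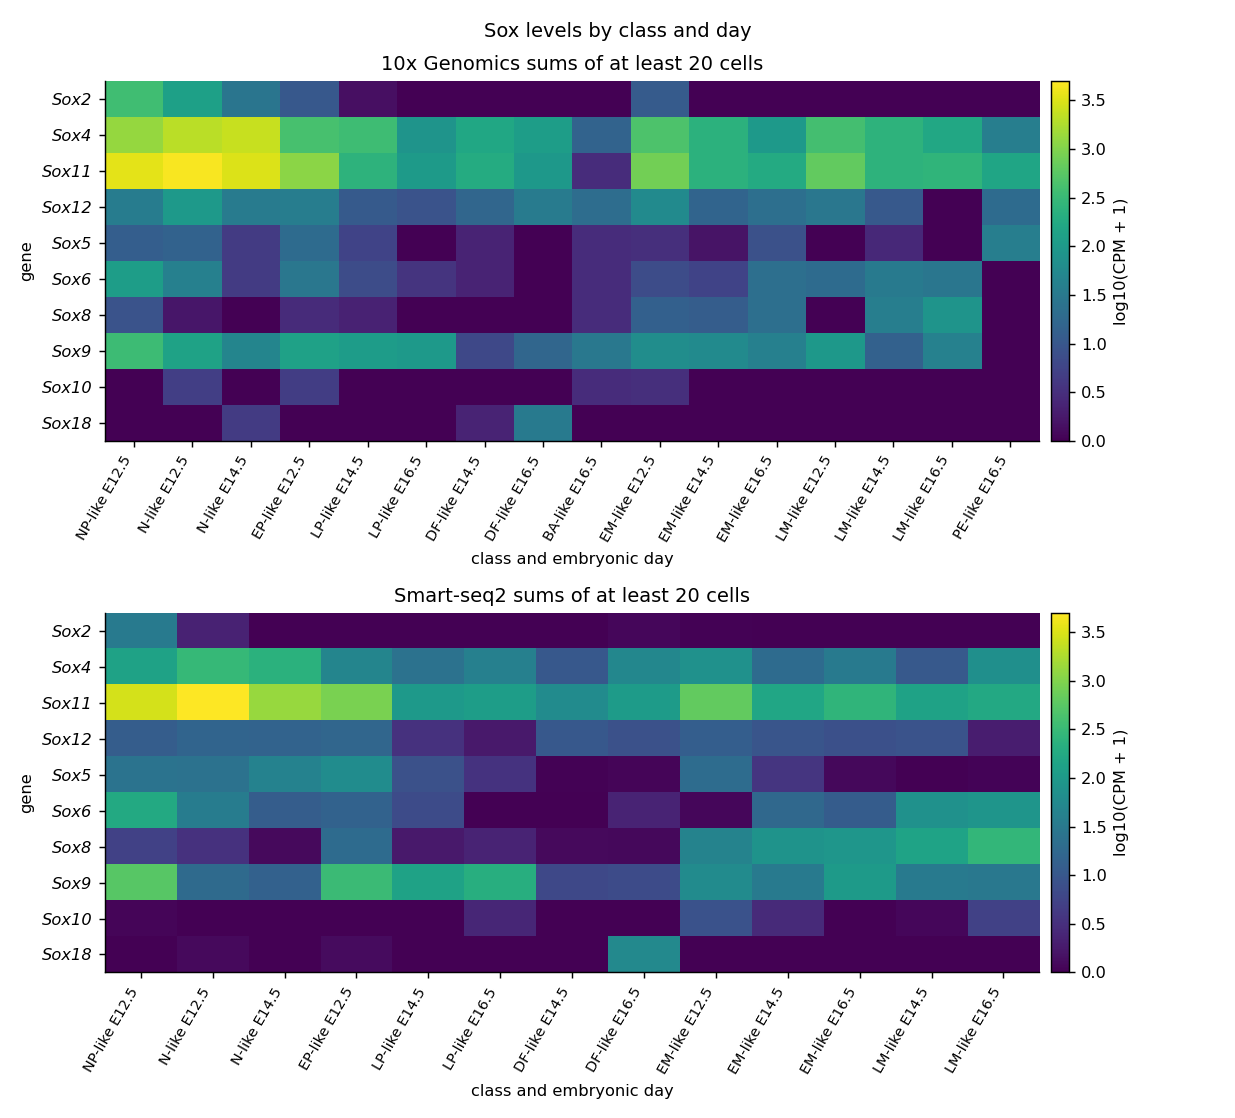
Level of each Sox gene, as log10(CPM + 1) in colour, for each class and embryonic day with at least 20 cells (columns), on 10x above and ss2 below. Sox4 and Sox11 are brightest in the neural classes, Sox2 is bright in NP-like cells, Sox8 on ss2 in muscle, and Sox18 in DF-like cells of E16.5, where it reached 30.9 CPM on 10x and 54.9 on ss2.

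The lineage holds neural cells besides somitic ones, and Sox2, Sox4 and Sox11 were the members higher in them. Neural classes (N-like and NP-like together) were compared with mesodermal classes (EP-, LP-, DF-, BA-, EM- and LM-like together) inside the 4 pools with at least 20 cells of both. Sox2 was higher by 6.67 ± 1.01 (log2 fold change ± SE, adjusted p = 0.00579), Sox11 by 2.65 ± 0.26 (adjusted p = 0.00188) and Sox4 by 2.46 ± 0.29 (adjusted p = 0.00282), each in 4 of 4 pools. Sox8 was lower by 3.56, with a log2 fold change of -3.56 ± 0.55 and an adjusted p of 0.00596, also in 4 of 4 pools. Among all genes tested 28.8% passed the threshold in either direction, and of the 9 members tested 4 did, 3 higher and 1 lower. Sox5 (0.93 ± 0.85), Sox6 (1.16 ± 0.49), Sox9 (-0.33 ± 0.30), Sox10 (-2.85 ± 1.35) and Sox12 (0.38 ± 0.31) did not pass the threshold. Sox6 passed as higher in neural classes on 10x alone (1.34, adjusted p = 0.0325) and without the ss2 pool of E14.5 (1.79, adjusted p = 0.0205). The calls of Sox2, Sox4, Sox8 and Sox11 were kept under every alternative run, with adjusted p of at most 0.0396.

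Sox11 held 4463 CPM in neural and 961 CPM in mesodermal cells of the E12.5 10x library, and 2863 and 232.6 CPM at E14.5. On ss2 the pairs were 4070 and 772 CPM at E12.5 and 1312 and 116.6 CPM at E14.5. The neural value lay above the mesodermal one in each pool. Sox4 held 1934 and 436.4 CPM on 10x at E12.5, 2275 and 277.4 CPM at E14.5, and on ss2 234.9 and 54.9 CPM, then 218.95 and 16.9 CPM. Neural cells were the higher ones in each pool here too. Levels were compared within a platform, never across both. Sox2 held 160 and 8.96 CPM on 10x at E12.5, 85.1 and 0.713 CPM at E14.5, and on ss2 13.8 and 0.00983 CPM, then 1.23 and 0 CPM. Mesodermal Sox2 rested on few molecules, with 5 UMIs in EP-like and 5 in EM-like cells of E12.5. Sox8 went the other way, with 1.67 and 6.27 CPM on 10x at E12.5, 2.84 and 8.20 CPM at E14.5, and on ss2 3.10 and 44.1 CPM, then 2.79 and 43.4 CPM.

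**Figure D2:**
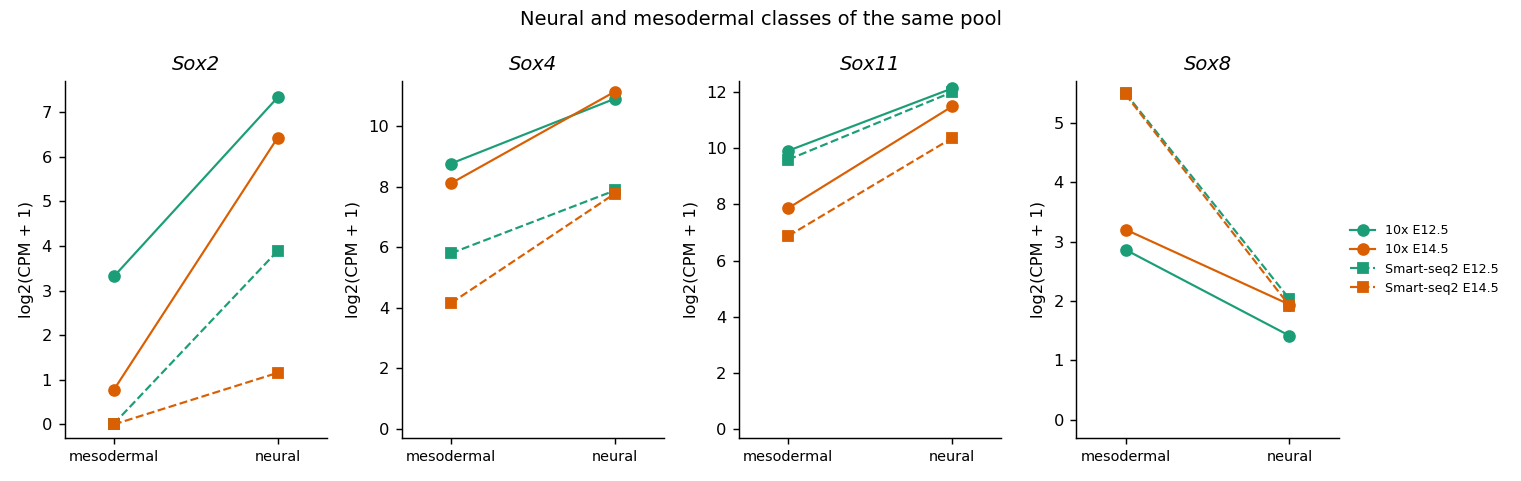
Levels of Sox2, Sox4, Sox11 and Sox8 as log2(CPM + 1) in the mesodermal and neural classes, with a line joining the sums of 1 pool (circles and solid lines 10x, squares and dashed lines ss2, colour the day). Lines rise to the neural side for Sox2, Sox4 and Sox11 and fall for Sox8 in all 4 pools.

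Other genes of the neural programme moved in the same comparison. Of 10 genes of young neurons 9 were higher and 1 lower (median log2 fold change 4.66, beside -0.15 over all genes), with Stmn2, a tubulin-binding protein of growing neurites, at 3.68 ± 0.24 (adjusted p = 0.00133) and Tead2, a partner of Yap, at -1.39 ± 0.41 (adjusted p = 0.0428). Of 11 genes of neural progenitors 4 were higher and 1 lower, with Pax6, a regulator of neural progenitors, at 4.66 ± 0.53 (adjusted p = 0.00260). Several of these genes are themselves markers that named the classes, so their counts are a description. Of 9 further Sox genes on a fixed list 4 were tested, and 2 were higher. These were Sox21, a SoxB2 factor, at 8.66 ± 1.33 (adjusted p = 0.00596) and Sox1, a SoxB1 factor like Sox2, at 4.31 ± 1.00 (adjusted p = 0.0209).

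Inside the neural cells, Sox2, Sox6 and Sox9 were higher in NP-like than in N-like cells, while Sox4 and Sox11 did not pass the threshold. Only the E12.5 pools have 20 cells of both classes, so the test rests on 4 sums and 1 residual degree of freedom. The log2 fold changes were 3.18 ± 0.63 for Sox2 (adjusted p = 0.00488), 1.99 ± 0.39 for Sox6 (adjusted p = 0.00457) and 3.20 ± 0.70 for Sox9 (adjusted p = 0.00920), each higher in 2 of 2 pools. Of all genes tested 8.66% passed in either direction, and of 8 members tested 3 did, all higher. Sox4 had -0.91 ± 0.36 (adjusted p = 0.137) and Sox11 -0.56 ± 0.46 (adjusted p = 0.537), lower in NP-like cells in 2 of 2 pools each. With DESeq2 Sox4 passed as lower in NP-like cells (-0.94 ± 0.26, adjusted p = 0.00633). The Sox9 call was lost at clustering resolution 1.2 (adjusted p = 0.0812) and with all deposited cells (adjusted p = 0.0658). Leaving out a pool leaves no residual degree of freedom, and gives 1.55 and 3.90 for Sox2, 1.46 and 2.31 for Sox6, and 1.31 and 4.83 for Sox9.

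Sox9 held 341.1 CPM (273.2 to 420.8) in NP-like and 135.2 CPM (117.4 to 154.8) in N-like cells on 10x, and 538.55 and 17.98 CPM on ss2. All 42 NP-like ss2 cells had a Sox9 count (100%), beside 34.5% of the N-like ones. Sox2 held 372.5 CPM (301.4 to 455.4) and 124.8 CPM (107.7 to 143.7) on 10x, and 32.3 and 1.24 CPM on ss2. NP-like cells were the higher ones on both platforms, and the ratio between the classes was larger on ss2 for both genes. Sox6 held 113.7 CPM (76.2 to 163.3) and 40.3 CPM (30.9 to 51.6) on 10x, and 177.9 and 34.96 CPM on ss2. Markers of NP cells moved with these genes. Their summed level was 2717 CPM in NP-like and 730 CPM in N-like cells on 10x, with all 8 measured genes above 0 in both, and 2171 and 101.96 CPM on ss2, with Aldoc at 0 in both. The part of progenitor RNA in the N-like levels of 10x was not tested. A Sox2 UMI was found in 45.1% of NP-like cells (median depth 1627 UMIs), in 29.9% of N-like cells (3242 UMIs) and in 1.75% of EP-like cells (1462 UMIs), a mesenchymal class that serves as background. Thinned to 1000 UMIs a cell, with 32, 38 and 43 cells left out, the shares were 29.7%, 11.4% and 0.823%.

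In N-like cells of E14.5 Sox2 held 26.6 CPM (11.5 to 52.4) on 10x, below its interval at E12.5, and no count on ss2. Sox11 held 4626 CPM (4519 to 4735) at E12.5 and 3239 CPM (3039 to 3449) at E14.5 on 10x, and 4874 and 1347 CPM on ss2. Sox4 was 2040 CPM (1969 to 2112) and then 2488 CPM (2313 to 2672) on 10x, and 304.9 and then 230 CPM on ss2, so the platforms gave opposite directions. The N-like cells of E12.5 were all in the cluster led by Lhx1os and Lhx1, while most of those of E14.5 were in clusters led by Grp and Tlx3 or by Neurod6, so these values compare different neuron clusters. The Lhx1 cluster held 27 cells of E14.5 on 10x and 36 on ss2. In them Sox2 held 78.1 CPM (31.4 to 160.8), overlapping with E12.5, and no count on ss2, and Sox11 held 3847 CPM (3452 to 4275) and 1527 CPM on ss2, still below E12.5. Sox4 held 2855 CPM (2516 to 3227) there, above its interval at E12.5. On ss2 it held 320.2 CPM, above the 304.9 CPM of E12.5 but inside the range of the E12.5 plates, 199.45 to 358.48 CPM. The days were measured once per platform, and these values have no test. The ss2 plates showed the spread within a day. Sox11 in N-like cells ranged from 2499 to 4971 CPM over 4 plates at E12.5 and from 661 to 2391 CPM over 4 plates at E14.5, without overlap. The order of classes for Sox11 on 10x at E12.5 was N-like, NP-like at 3482 CPM (3257 to 3719), EP-like at 1151 CPM (1062 to 1245), EM-like at 821 CPM (741 to 907) and LM-like at 651 CPM (507.7 to 823). Of these neighbours the intervals of EM-like and LM-like cells overlapped, and the others did not.

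Most genes of the neural progenitor list were higher in NP-like than in N-like cells, and most of the young neuron list lower. Of 11 progenitor genes 9 were higher, with Fabp7, a fatty acid binding protein of radial glia, at 3.85 ± 0.69 (adjusted p = 0.00265) and Vim, an intermediate filament, at 2.28 ± 0.44 (adjusted p = 0.00419). Of 10 young neuron genes 9 were lower and 1 higher, with Ina and Nefl, neurofilament proteins, at -6.89 ± 0.60 (adjusted p = 1.42e-05) and -6.83 ± 0.57 (adjusted p = 1.33e-05). Members of both lists helped to name the classes. Sox21 was the 1 further Sox gene past the threshold, at 2.71 ± 0.51 (adjusted p = 0.00373), with 156.8 CPM (112.05 to 213.6) in NP-like and 52.6 CPM (41.8 to 65.4) in N-like cells on 10x.

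In the mesenchyme, Sox11, Sox5 and Sox12 were lower in LP-like than in EP-like cells. EP-like cells were found at E12.5 and LP-like cells at E14.5 and E16.5, so class and day cannot be told apart, and the test took 6 sums, with a platform term. Sox11 held 1151 CPM (1062 to 1245) in EP-like cells of 10x and 903 CPM on ss2. LP-like cells held 242.6 CPM (223.4 to 262.96) at E14.5 and 102.4 CPM (72.8 to 140) at E16.5 on 10x, and 97.2 and 114.99 CPM on ss2. Every LP-like sum was below the EP-like sum of its platform. Neuron markers summed to 172.2 CPM in EP-like cells of 10x, beside 47.4 and 23.6 CPM in LP-like cells of E14.5 and E16.5. On ss2 these sums were 128.7, 32.4 and 41.25 CPM, and the part of such RNA in the result was not tested. The log2 fold changes were -2.48 ± 0.38 for Sox11 (adjusted p = 0.00316), -2.87 ± 0.65 for Sox5 (adjusted p = 0.0224) and -2.36 ± 0.62 for Sox12 (adjusted p = 0.0439). Of all genes tested 5.89% passed in either direction, and of 8 members tested 3 did, all lower. Without the ss2 EP-like sum these calls were lost (adjusted p = 0.578 for Sox11 and 0.965 for the others), and on 10x alone they were lost too (0.0666, 0.597 and 0.415). Sox5 also missed the threshold without the 10x EP-like sum (adjusted p = 0.0766) or the 10x LP-like sum of E16.5 (0.0565), and Sox12 without any 1 of the 3 sums of 10x (0.106 to 0.139), with all deposited cells (0.0600) and without the chondrocyte-like cells described below (0.0525). At clustering resolution 0.4 no EP-like class was named.

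Sox5 held 18.7 CPM (8.97 to 34.4) in EP-like cells on 10x and 61.1 CPM on ss2. LP-like cells held 4.53 CPM (2.26 to 8.11) at E14.5 and no UMI (interval up to 9.69 CPM) at E16.5 on 10x, and 7.33 and 2.51 CPM on ss2. Sox12 held 35.6 CPM (21.4 to 55.5) in EP-like cells, then 10.3 CPM (6.66 to 15.2) and 7.88 CPM (1.62 to 23.02) in LP-like cells on 10x, and 15.4, 2.41 and 0.782 CPM on ss2. Both genes were lower in the later class in each sum. Sox9, which shares cartilage targets with Sox5, did not pass the threshold. It held 130.99 CPM (102.1 to 165.5) in EP-like cells and 110 CPM (97.5 to 124.4) and 99.8 CPM (70.6 to 136.95) in LP-like cells on 10x, and 332.4, 134.7 and 207.6 CPM on ss2, with a log2 fold change of -0.22 ± 0.38 (adjusted p = 0.826). Sox4 had -0.31 ± 0.50 (adjusted p = 0.806), Sox6 -1.99 ± 1.17 (adjusted p = 0.377) and Sox8 -2.86 ± 1.06 (adjusted p = 0.143). Without the LP-like ss2 sum of E14.5, Sox6 passed as lower in LP-like cells, at -4.97 ± 1.32 (adjusted p = 0.0180). The 7 EP-like plates spread widely, from 3.56 to 632 CPM for Sox9 and from 4.27 to 121.2 CPM for Sox5. Of 12 cartilage matrix genes 11 were tested, and 2 were higher in LP-like cells (Col11a2 at 4.16 ± 1.03, adjusted p = 0.0332, and Col9a2 at 1.81 ± 0.49, adjusted p = 0.0471, both chains of cartilage collagens) and none lower.

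Between the later mesenchymal classes Sox9 showed the clearest contrast, lower in DF-like than in LP-like cells. Sox9 held 110 CPM (97.5 to 124.4) in LP-like and 5.26 CPM (1.43 to 13.5) in DF-like cells of 10x at E14.5, and 99.8 CPM (70.6 to 136.95) and 15.5 CPM (6.22 to 31.9) at E16.5. On ss2 it held 134.7 and 5.25 CPM at E14.5 and 207.6 and 5.90 CPM at E16.5. No DF-like value overlapped an LP-like one. The log2 fold change was -4.62 ± 0.34 (adjusted p = 1.84e-05), lower in 4 of 4 pools. It lay between -4.87 and -3.53 under the alternatives and kept its call in each. Of all genes tested 13.9% passed in either direction, and of 6 members tested 3 did, 1 higher and 2 lower. A Sox9 UMI was found in 34.1% of LP-like cells at E14.5 (median depth 5446 UMIs) and in 3.15% of DF-like cells (5479 UMIs), a ratio seen at nearly equal depth.

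Some LP-like cells carried cartilage genes, and Sox9 was measured with and without them. A clustering resolution of 1.2 splits off 72 LP-like cells named from the chondrocyte markers, 51 of them in the 10x library of E14.5. These held 206.3 CPM of Sox9, and the other LP-like cells of that library held 87.6 CPM. The other LP-like cells held 96.1 CPM at E16.5 on 10x, and 80.5 and 195.8 CPM on ss2 at E14.5 and E16.5. Sox9 was thus above the DF-like level without those cells as well. Of 6 chondrocyte markers 3 were detected in at least 10% of the 51 cells, and so were 3 of 9 brown adipocyte markers. Chondrocyte markers summed to 1175 CPM there and to 48.4 CPM in the other LP-like cells of that library. Brown adipocyte markers summed to 356.7 and 19.4 CPM, so leaving these cells out removed both signals. Markers of tendon, where Sox9 is also known to act, were likewise lower in DF-like than in LP-like cells. They summed to 145.8 and 162.8 CPM in LP-like and to 3.94 and 13.3 CPM in DF-like cells on 10x (E14.5, then E16.5), with 0 and 2 of 4 genes at 0 in LP-like and 2 at 0 in DF-like cells. On ss2 the sums were 237.7 and 245.1 CPM against 11.6 and 27.7 CPM. Without the chondrocyte-like cells the LP-like sums were 176.8 and 165.5 CPM on 10x, and 290.7 and 261.2 CPM on ss2. The chondrocyte-like cells of 10x at E14.5, with the higher Sox9 level, held only 15.04 CPM of tendon markers. The part of these cells in the Sox9 result was not tested. Chondrocyte markers summed to 264.4 and 28.9 CPM in LP-like and to 14.45 and 19.9 CPM in DF-like cells on 10x (E14.5, then E16.5), with 0 and 2 of 6 genes at 0 in LP-like and 4 at 0 in DF-like cells. On ss2 they summed to 636 and 33.03 CPM against 31.9 and 14.9 CPM, on 5 genes. While this sum was lower at E16.5 in LP-like cells, Sox9 had overlapping intervals on both days of 10x, and 134.7 and 207.6 CPM on ss2. Of 12 cartilage matrix genes 10 were tested and 8 were lower in DF-like cells (median log2 fold change -5.05, beside -0.04 over all genes), among them Col2a1, the main collagen of cartilage, at -6.27 ± 0.30 (adjusted p = 2.19e-06) and Cnmd, chondromodulin, at -10.99 ± 0.76 (adjusted p = 1.42e-05).

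Sox5 was lower in DF-like cells as well, and Sox12 higher, with weaker evidence. Sox5 held 4.53 CPM in LP-like and 1.31 CPM (0.0333 to 7.32, 1 UMI) in DF-like cells of 10x at E14.5, and no UMI in either at E16.5. On ss2 it held 7.33 and 0.0682 CPM at E14.5 and 2.51 and 0.118 CPM at E16.5. Its log2 fold change was -4.70 ± 1.31 (adjusted p = 0.0432). The call was lost without the 10x pool of E16.5 (adjusted p = 0.0756), the only pool whose removal left a test of Sox5. Without any other pool the filter on low counts removed the gene. The call was also lost without the chondrocyte-like cells (0.0751) and with no filter on low counts (0.0595). With all deposited cells (0.0531) and at resolution 1.2 (0.0749) it was lost too. Sox12 held 10.3 CPM (6.66 to 15.2) and 15.8 CPM (8.15 to 27.5) on 10x at E14.5, and 7.88 CPM (1.62 to 23.02) and 33.1 CPM (18.5 to 54.7) at E16.5, LP-like first. On ss2 it held 2.41 and 9.56 CPM, then 0.782 and 7.21 CPM. DF-like cells were the higher ones in 4 of 4 pools (log2 fold change 1.98 ± 0.55, adjusted p = 0.0389). That call was lost without the 10x pool of E14.5 (adjusted p = 0.0644), without that of E16.5 (0.155), without the ss2 pool of E16.5 (0.0908) and with all deposited cells (0.0749). Sox4 had -0.55 ± 0.31 (adjusted p = 0.285), Sox11 -0.40 ± 0.16 (adjusted p = 0.138) and Sox6 -2.59 ± 3.08 (adjusted p = 0.656).

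**Figure D3:**
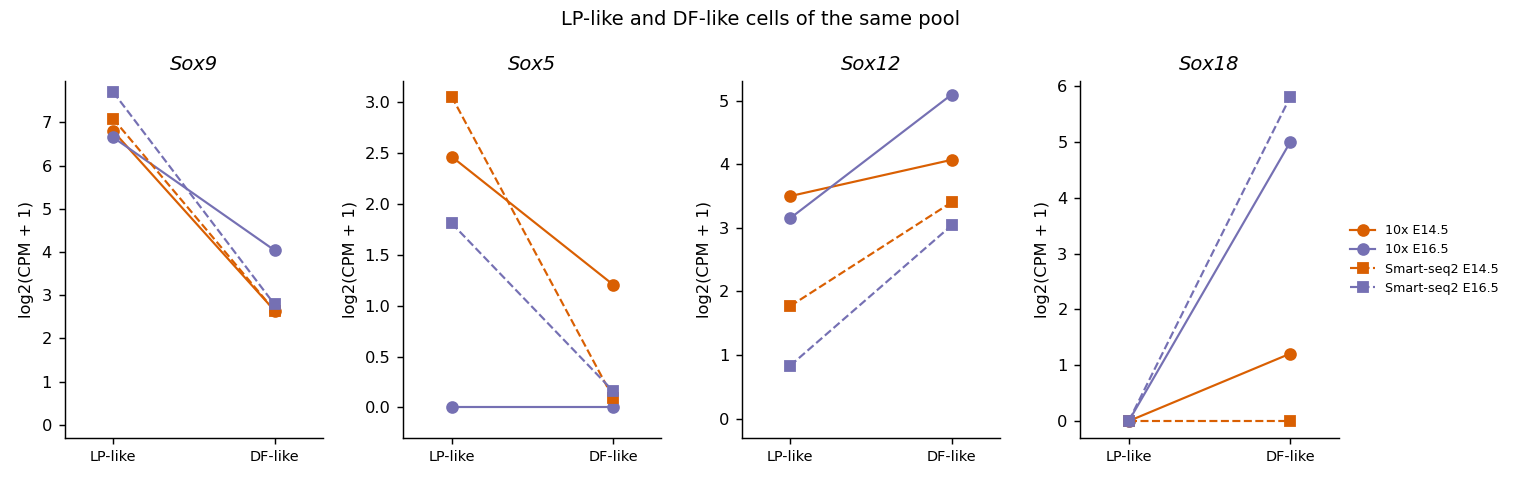
Levels of Sox9, Sox5, Sox12 and Sox18 as log2(CPM + 1) in LP-like and DF-like cells, with a line joining the sums of 1 pool (circles and solid lines 10x, squares and dashed lines ss2, colour the day). Sox9 falls and Sox12 rises in all 4 pools, and Sox18 is at 0 in all LP-like sums and highest in DF-like cells of E16.5.

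Sox18 had its highest levels in DF-like cells of E16.5. It held 14 UMIs in 310 cells of 10x, or 30.9 CPM (16.9 to 51.9), and 54.9 CPM on ss2, where 4 plates ranged from 1.37 to 91.9 CPM with a median of 60.1 CPM. DF-like cells of E14.5 held 1 UMI on 10x (1.31 CPM, 0.0333 to 7.32) and none on ss2. LP-like cells held none in any of 4 pools, with an upper limit of 1.52 CPM at E14.5 and 9.69 CPM at E16.5 on 10x. Outside DF-like cells the highest value of a sum of at least 20 cells was 3.33 CPM (0.0842 to 18.5), from 1 UMI in N-like cells of E14.5. Smaller sums gave 18.1 CPM in 7 N-like and 9.74 CPM in 15 PE-like ss2 cells of E16.5, from 1 cell each. The filter on low counts kept Sox18 out of the DF-like against LP-like test. With no filter it had an adjusted p of 0.00144, and its fitted fold change is no bound, as LP-like cells are at 0.

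The Sox18 counts lay in 11 of 310 DF-like cells on 10x (3.55%) and 8 of 65 on ss2 (12.3%). Sox18 is best known from endothelium, so endothelial markers were looked for in the same cells. On 10x, Cdh5, Kdr, Tie1, Emcn, Cldn5, Tek, Esam and Pecam1 had no UMI in the 11 cells, and Flt1 had one in 3 of the 11 and in 0.334% of the others. On ss2 Cdh5, the cadherin of endothelial junctions, had no count in the 8 cells or in the other 57, and neither had Tek. Tie1, an endothelial receptor, had a count in 5 of the 8 cells and in 10 of the 57 others (17.5%). Pecam1 had one in all cells of both groups, Flt1 in 2 of 8 and 49.1% of the others, Vwf in 1 of 8 and 45.6%, and Kdr in 1 of 8 and 5.26%. Tie1 thus moved with Sox18 on ss2, and its part in the Sox18 level was not tested. Twist2, a dermal factor, had a UMI in 6 of the 11 cells and in 74.2% of the others, and a count in 8 of 8 on ss2. In all DF-like cells of E16.5 the 8 endothelial markers measured on 10x summed to 4.42 CPM, all of it Pecam1, and the 7 measured on ss2 summed to 46.2 CPM, of which Pecam1 made up 41.6 CPM. Sox2, which with Sox18 marks the dermal condensate in mouse skin, had a count in 1 of the 8 cells on ss2 and in none of the 11 on 10x.

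Muscle cells stood apart from the mesenchymal progenitors in Sox8 and Sox9. EM-like cells were compared with EP-like and LP-like cells together inside all 6 pools. Sox8 held 12.7, 11.2 and 21.5 CPM in EM-like cells of 10x over the days (intervals 4.67 to 27.7, 6.85 to 17.3 and 7.89 to 46.8), and 1.86, 1.23 and 0 CPM in the progenitors. On ss2 it held 44.7, 78.7 and 88.1 CPM against 18.4, 0.884 and 1.34 CPM. EM-like cells were higher in 6 of 6 pools, by a log2 fold change of 4.50 ± 0.85 (adjusted p = 0.00393). Sox9 held 63.6, 57.2 and 39.4 CPM against 130, 113.1 and 98.7 CPM on 10x, and 59.3, 32.7 and 102.6 CPM against 316.04, 132.8 and 211.25 CPM on ss2. EM-like cells were lower in 6 of 6 pools, by -1.49 ± 0.23 (adjusted p = 0.00145), yet held Sox9 in every pool. Of all genes tested 28.3% passed in either direction, and of 7 members tested 2 did, 1 higher and 1 lower. The calls of Sox8 and Sox9 held under all alternatives run, with adjusted p of at most 0.0158.

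Sox5 and Sox12 were near the threshold in this comparison. Sox5 had -2.03 ± 0.70 (adjusted p = 0.0512) and passed with DESeq2 (adjusted p = 0.0143), at resolution 1.2 (0.0278) and without the 10x pool of E16.5 (0.0200). Sox12 had 1.14 ± 0.45 (adjusted p = 0.0823) and passed with DESeq2 (adjusted p = 0.0249), at resolution 0.4 (0.0265) and without the ss2 pool of E12.5 (0.00995). Sox11 had 0.20 ± 0.20 (adjusted p = 0.497) and passed as higher in EM-like cells at resolution 0.4 (0.64 ± 0.18, adjusted p = 0.0185). Sox4 had -0.06 ± 0.19 (adjusted p = 0.864) and Sox6 0.45 ± 1.59 (adjusted p = 0.867). Of 12 cartilage matrix genes 8 were tested and all 8 were lower in EM-like cells, with Col9a3, a chain of collagen IX, at -8.26 ± 0.62 (adjusted p = 4.08e-05). Chondrocyte markers summed to 38.2, 6.17 and 0 CPM in EM-like cells of 10x over the days, with all 6 at 0 at E16.5, where Sox9 still held 39.4 CPM (19.7 to 70.5). No call of a member changed when the chondrocyte-like cells were left out of the progenitors.

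Within muscle, Sox6 and Sox8 were higher in LM-like than in EM-like cells. The comparison ran inside 5 pools, all but ss2 at E12.5, which has 14 LM-like cells. Sox6 held 18.6 CPM (2.25 to 67.2), 32.6 CPM (19.9 to 50.4) and 27.3 CPM (3.31 to 98.7) in LM-like cells of 10x over the days, and 6.36 CPM (1.31 to 18.6), 4.49 CPM (1.94 to 8.84) and 21.5 CPM (7.89 to 46.8) in EM-like cells. On ss2 it held 73.4 against 16.7 CPM at E14.5 and 83.99 against 10.9 CPM at E16.5. LM-like cells were higher in 5 of 5 pools, and at E12.5 and E16.5 the intervals of 10x overlapped. The log2 fold change was 2.52 ± 0.40 (adjusted p = 4.28e-05). Of all genes tested 26.3% passed in either direction, and of 6 members tested 2 did, both higher.

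Sox8 held no UMI, 37.5 CPM (23.8 to 56.3) and 81.96 CPM (30.1 to 178.4) in LM-like cells of 10x over the days. EM-like cells held 12.7, 11.2 and 21.5 CPM there. On ss2 it held 140 against 78.7 CPM at E14.5 and 284.7 against 88.1 CPM at E16.5. LM-like cells were higher in 4 of 5 pools, by 1.5 ± 0.29 (adjusted p = 0.000399). The exception was 10x at E12.5, where 34 LM-like cells with no Sox8 UMI allow up to 34.3 CPM, so no difference was detectable at that depth. By plate, LM-like Sox8 ranged from 124.7 to 161.04 CPM over 3 plates at E14.5 and from 229.01 to 345.75 CPM over 4 plates at E16.5. EM-like Sox8 ranged from 48.1 to 133.2 CPM and from 59.5 to 118.1 CPM over 4 plates each, so the ranges overlapped at E14.5 and not at E16.5. Both calls held under all alternatives run, with adjusted p of at most 0.00222 for Sox6 and 0.0197 for Sox8. A Sox8 count was found in 88.9% of LM-like and 52.5% of EM-like ss2 cells at E16.5, and in 16.9% of DF-like ones as background, at median depths of 872547, 880601 and 922510 counts.

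The remaining members did not separate the muscle classes. Sox9 had -0.66 ± 0.35 (adjusted p = 0.176), Sox12 -1.09 ± 0.59 (adjusted p = 0.192), Sox4 0.24 ± 0.23 (adjusted p = 0.493) and Sox11 -0.05 ± 0.16 (adjusted p = 0.868). Sox9 passed without the ss2 pool of E14.5 (-1.13, adjusted p = 0.0324). All 6 fast fibre genes tested were higher in LM-like cells (median log2 fold change 5.02, beside 0.07 over all genes), with Mylpf, the fast regulatory myosin light chain, at 6.87 ± 0.23 (adjusted p = 5.57e-15). Of 4 slow fibre genes tested 3 were higher and 1 lower, with Tnni1, slow troponin I, at 6.43 ± 0.23 (adjusted p = 1.14e-14) and Tpm3, slow tropomyosin, at -0.96 ± 0.19 (adjusted p = 0.000469). None of these fibre genes is in the marker lists. LM-like cells were named by other contraction genes, such as Actc1 and Ttn, so these counts are a description.

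**Figure D4:**
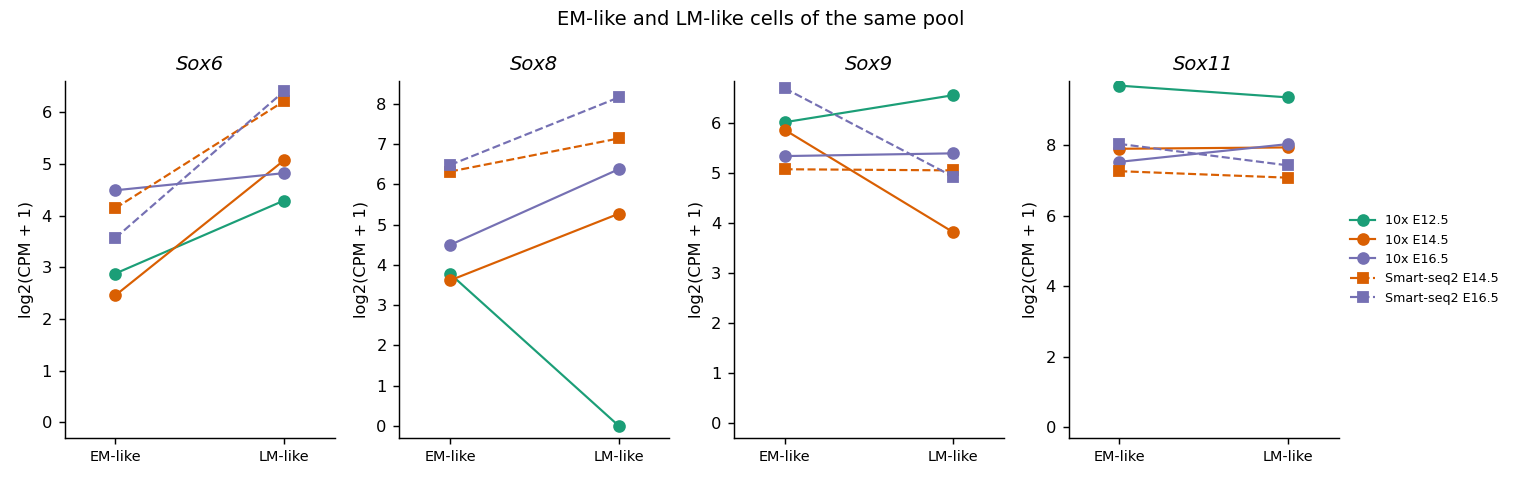
Levels of Sox6, Sox8, Sox9 and Sox11 as log2(CPM + 1) in EM-like and LM-like cells, with a line joining the sums of 1 pool (circles and solid lines 10x, squares and dashed lines ss2, colour the day). Sox6 rises in 5 of 5 pools and Sox8 in 4 of 5, the exception being 10x at E12.5, while Sox9 and Sox11 go both ways.

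Over time in EM-like cells, Sox4 and Sox11 were lower and Sox6 was higher at E16.5 than at E12.5. Sox11 held 821 CPM (741 to 907), 236.7 CPM (214.6 to 260) and 182.8 CPM (136.1 to 240) on 10x over the days, and 639, 152.1 and 260.55 CPM on ss2. Sox4 held 464.45 CPM (404.97 to 530), 234.4 CPM (212.5 to 258.03) and 100 CPM (66.7 to 145.04) on 10x, and 73.8, 18.7 and 30.95 CPM on ss2. Both were lower at E14.5 and E16.5 than at E12.5 on both platforms, and on ss2 the value of E16.5 was above that of E14.5. The log2 fold changes were -1.32 ± 0.37 (adjusted p = 0.00616) for Sox11 and -1.25 ± 0.39 (adjusted p = 0.0166) for Sox4. Sox6 held 6.36, 4.49 and 21.5 CPM on 10x and 0.180, 16.7 and 10.9 CPM on ss2, with 4.72 ± 1.18 (adjusted p = 0.00169). Of all genes tested 10.3% passed in either direction, and of 8 members tested 4 did, 1 higher and 3 lower. These tests compare 6 sums with 2 residual degrees of freedom, and a day was measured once per platform. The ss2 plates of E12.5 ranged from 210 to 974 CPM for Sox11 and those of E16.5 from 184.8 to 317.97 CPM, with overlap.

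These calls over time rested on few sums. On ss2 the days also differ in clusters, with 45 of 50 EM-like cells of E12.5 in a cluster led by Afp, Alb and Msc, and all 59 of E16.5 in a cluster led by Msc and Kcne1l. On 10x most cells of both days were in the first of these, and most of E14.5 in the second. Without the ss2 sum of E12.5, none was kept (adjusted p = 0.762 for Sox4, 0.406 for Sox11 and 1.00 for Sox6). Sox4 and Sox11 were also lost without the 10x sum of E12.5 (0.145 and 0.189) or of E16.5 (0.317 and 0.146), and Sox6 without the ss2 sum of E16.5 (0.0884). DESeq2 gave adjusted p of 0.0561 for Sox4 and 0.0825 for Sox6, and resolution 1.2 gave 0.0595 for Sox4. Sox5 had -4.41 ± 1.68 (adjusted p = 0.0726) and passed as lower at resolution 1.2 (-6.09, adjusted p = 0.000231) and without each 10x sum or the ss2 sum of E14.5 (-6.04 to -4.68, adjusted p of at most 0.0356). Sox8 had 1.23 ± 0.51 (adjusted p = 0.115), Sox9 0.69 ± 0.43 (adjusted p = 0.363, and 0.0295 at 1.29 without the 10x sum of E16.5) and Sox12 -0.73 ± 0.62 (adjusted p = 0.542). The summed level of neuron markers was also lower at E16.5 than at E12.5. In EM-like cells it was 299.03, 76.8 and 75.3 CPM on 10x over the days and 152.5, 112.8 and 106.2 CPM on ss2. At E12.5, 0 of 9 genes were at 0 on 10x and 2 on ss2, where Dcx made up 111.8 CPM. From E14.5 to E16.5 on ss2 the sum did not rise, unlike Sox4 and Sox11. Of 10 young neuron genes tested over the days, 1 was higher (Map2, 1.89 ± 0.56, adjusted p = 0.0107) and 1 lower (Nefl, -8.38 ± 2.97, adjusted p = 0.0473). The part of these genes in the result was not tested.

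Sox10 was low in every class. On 10x it held 6 UMIs in 5 N-like cells of E12.5, or 3.90 CPM (1.43 to 8.49), 2 in EP-like and 1 each in EM-like cells of E12.5 and BA-like cells of E16.5, and none in the other sums. On ss2 its highest level was 7.49 CPM in EM-like cells of E12.5, where 2% of 50 cells, that is 1 cell, gave all the counts. It was called lower at E16.5 in EM-like cells (adjusted p = 0.00371), but the call rests on that cell and 1 UMI, the fitted fold change is no bound, and it was lost with DESeq2 (adjusted p = 0.421) and without the ss2 sum of E16.5 (0.941). Of the genes that go with Sox10 in Schwann cells, Erbb3, a neuregulin receptor that muscle progenitors also express, made up 264.8 of the 276.8 CPM that the 5 measured Schwann markers reached in those EM-like cells. Foxd3 and Gfra3 were at 0 there on 10x. Oligodendrocyte precursor markers were at 0 in NP-like cells of E12.5, all 4 of those measured, on both platforms.

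BA-like cells, measured as a sum of at least 20 cells on 10x at E16.5 alone, were low in Sox11 and Sox4. Sox11 held 1 UMI, or 1.98 CPM (0.0502 to 11.1), beside 102.4 CPM (72.8 to 140) in LP-like and 92.8 CPM (66.9 to 125.4) in DF-like cells of the same library. Sox4 held 13.9 CPM (5.58 to 28.6), beside 81.4 CPM (55.3 to 115.5) and 112.7 CPM (83.9 to 148.1). Sox9 held 29.8 CPM (16.7 to 49.1), between the 99.8 CPM of LP-like and the 15.5 CPM of DF-like cells. The intervals of BA-like and LP-like cells did not overlap for Sox11, Sox4 or Sox9, and with 1 library there is no test. Sox12 held 19.8 CPM (9.51 to 36.5), overlapping with both other classes. On ss2 there were only 14 BA-like cells, with 1.15 CPM of Sox11, 13.3 CPM of Sox4 and 100 CPM of Sox9. Sox6 held 1 UMI, or 1.98 CPM (0.0502 to 11.1), while its antisense transcript Sox6os held 19 UMIs, or 37.7 CPM (22.7 to 58.9). The next Sox6os value, 18.3 CPM in PE-like cells, rested on 1 UMI.

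The bulk Pdgfra-/Cd36+ cells gave deeper counts of such cells, in 2 libraries of 24862787 and 32947290 counts. As technical duplicates they show no spread between embryos, and their values are given side by side, with no test. Markers of brown adipocytes summed to 31153 and 28816 CPM, and no other marker list passed 457.8 CPM. Sox6 held 26.6 and 26.95 CPM, Sox9 13.0 and 21.5 CPM, and Sox5 16.1 and 11.7 CPM. Sox4 held 10.1 and 17.8 CPM, Sox12 5.83 and 10.6 CPM, and Sox11 3.30 and 4.37 CPM. CPM was also divided by the kilobases of the transcript with the longest coding sequence. Sox6 then stood at 9.17 and 9.28, Sox9 at 3.14 and 5.19, Sox4 at 2.10 and 3.72 and Sox11 at 0.397 and 0.526. That transcript has 2903 bases for Sox6, 2484 of them coding, and 8311 for Sox11. Which transcripts the cells hold was not examined, so the lead of Sox6 per kilobase depends on this choice. Sox6 was the highest of the 10 with and without the division, and SoxC gene Sox11 was low. Without strand, reads from any exon that Sox6 shares with Sox6os could not be told apart, and such overlap was not examined. In BA-like cells of 10x Sox6os was the more abundant of both. Sox18 held 1.21 and 0.911 CPM, Sox8 0.282 and 0.516 CPM, Sox10 0.0402 and 0.212 CPM, and Sox2 no count, which allows up to 0.121 and 0.0911 CPM. In bulk, fewer cells of a type and less RNA per cell cannot be told apart.

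**Figure D5:**
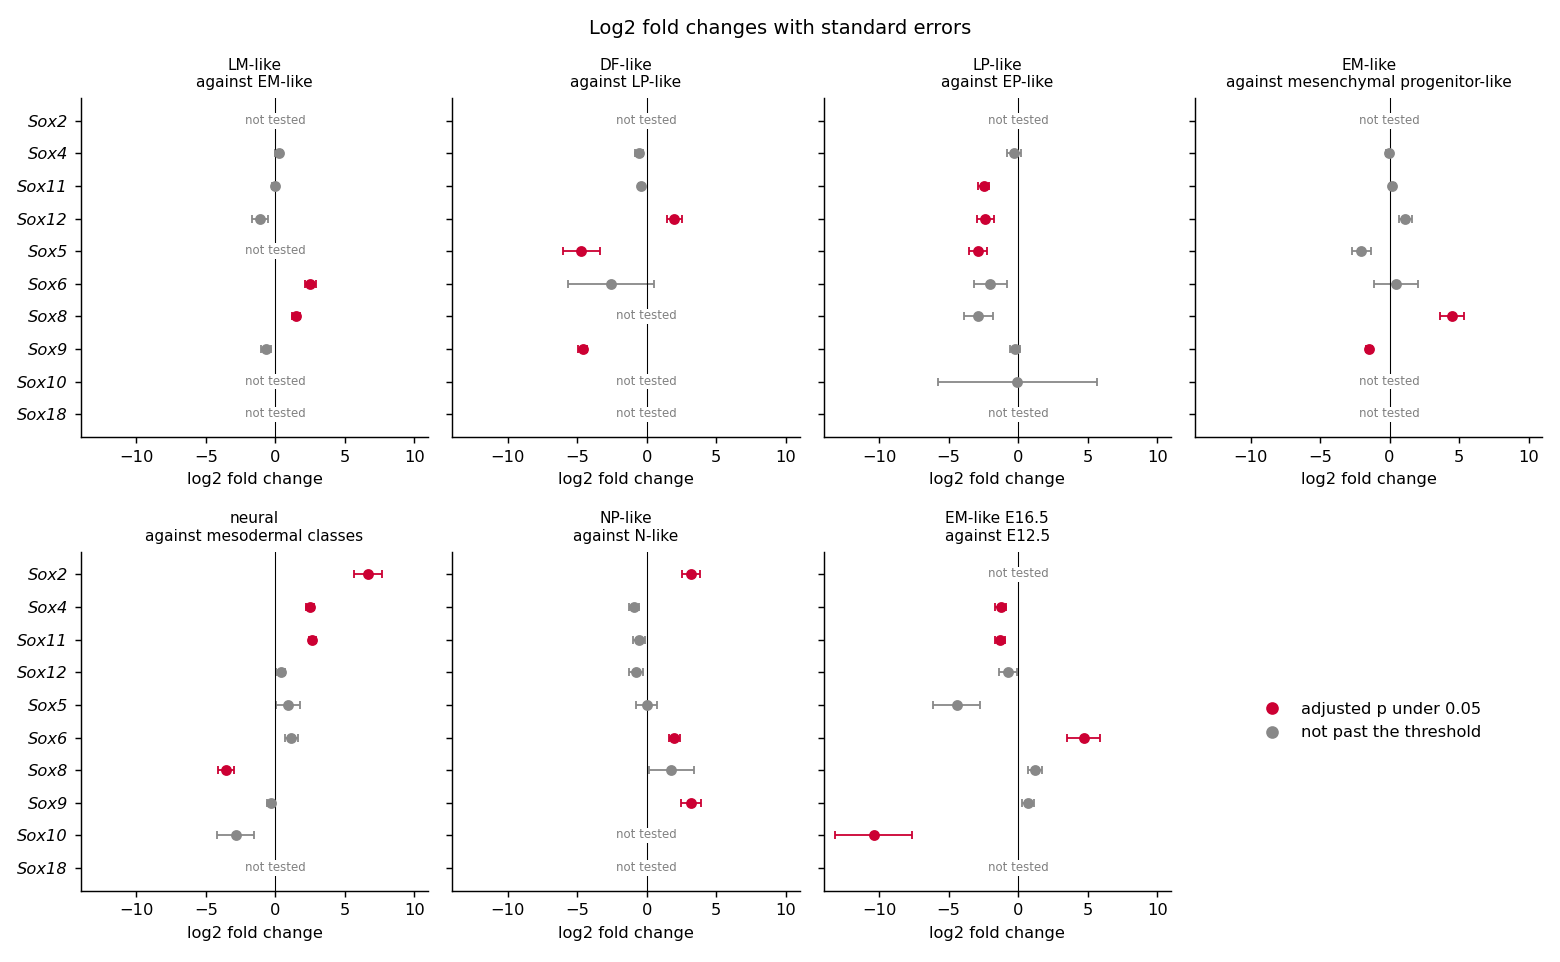
Log2 fold change of each Sox gene in the 7 comparisons, with bars of 1 SE, red where the adjusted p was under 0.05 and grey where it was not. Genes that the filter on low counts removed are marked as not tested, and the Sox10 point of -10.38 in the comparison of days rests on 1 UMI and 1 cell.

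For each member the 3 genes most alike in pattern were taken by the lower of 2 Pearson correlations of log2(CPM + 1), over 16 sums on 10x and 13 on ss2, among 12274 genes. They are a description, since sums of a pool share a library and depth. Sox2 was most like Neurog2 (0.97 on 10x and 0.93 on ss2), Fgf15 (0.93 and 0.97) and Rfx4 (1.00 and 0.92). Sox8 was most like Chrnd, a subunit of the acetylcholine receptor (0.91 and 0.90), and Sox18 like Cldn10 (0.81 and 0.80). Sox4 and Sox11 shared Ip6k2 (0.88 and 0.87, 0.89 and 0.90) among their 3. Sox11 was otherwise most like Tbpl1 (0.92 and 0.91) and Slc24a5 (0.88 and 0.95), and Sox4 like Srpk2 (0.88 and 0.89) and Elavl4 (0.86 and 0.85). Sox6 was most like Jam2 (0.84 and 0.82) and Sox12 like Patz1 (0.87 and 0.89), while for Sox9 (Git1, 0.76 and 0.76) and Sox5 (B4galt7, 0.77 and 0.78) no gene passed 0.80 on both platforms. Sox10 did not reach 5 CPM on both platforms.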

How the data were processed

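The authors made the raw UMI counts of the 10x table with Cell Ranger. The authors made the expected counts of the ss2 table, unscaled, with kallisto 0.44.0 and tximport. The bulk table holds raw read counts as deposited, and the tool that counted them is not given in the sources used here. The submitters' notes name mm10. The limits of the study were applied again to the cells (a YFP count, at most 8% mitochondrial counts, at least 4000 genes on ss2, at most 15000 UMIs on 10x).

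Cells were clustered with Seurat 5.3.0 (R 4.3.3) on 2000 variable genes, 30 components and resolution 0.8. Sox genes and the genes of the other lists counted above, such as cartilage matrix genes, were kept out of the variable genes. A cluster was named from a marker list that scored at least 0.8 with at least 3 markers in 10% of its 10x cells. For the EP-like cluster and 1 LP-like cluster, a list with fewer detected markers scored higher and was passed over. The 10% was chosen after marker detection was seen. Doublets were called with Scrublet (scanpy 1.11.5), which marked 8, 8 and 7 cells of the 10x libraries, and were kept. All 16 clusters were named.

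Counts were summed per class and pool, ss2 sums were rounded, and the 15147 genes of both platforms were tested with edgeR 4.0.16 (quasi-likelihood, TMM, low genes filtered, pool as a block, or platform as a term where classes share no pool), at an adjusted p under 0.05. The SE is the log2 fold change over the root of the quasi-likelihood F. The fits were tested on simulated data. Alternatives were DESeq2 1.42.0, RLE factors, no filter, other resolutions, all cells, Sox genes allowed, doublets removed, 10x alone and each sum left out. Leaving out chondrocyte-like cells was added after seeing the data. Where a level is 0, the upper limit is that of the exact 95% interval or, where said, 3 counts. Shares were also given with cells thinned to 1000 UMIs on 10x.

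Of 18 bulk columns 2 were used, since the headers of the other 16 could not be matched to the labels. The members and lists were chosen with earlier results of these data known. Named genes are the members, at most the 2 genes of smallest p per list and direction, and the 3 genes most alike in pattern. Sox18 cells were searched for endothelial genes after their values were seen.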

Additional observations from a re-analysis of the deposited data

Results flagged for a closer look

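The log2 ratio of CPM + 1 between both classes was examined per pool for each member, in 28 groups of pools for a pool far from the others, of which chance marks about 1 in 20. Sox8 stood apart in 10x of E12.5 between LM-like and EM-like cells, at -3.78, where LM-like cells had no UMI. Sox5 stood apart in 10x of E16.5 between EM-like and mesenchymal progenitor-like cells, at 3.03, and Sox12 in ss2 of E12.5 between neural and mesodermal classes, at -0.42.

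Some ratios had opposite signs on different days on both platforms, and the difference between days was not tested. Sox4 between DF-like and LP-like cells was at -1.15 and -1.28 at E14.5 and at 0.46 and 0.30 at E16.5. Between EM-like and mesenchymal progenitor-like cells, Sox4 was at 0.14 and 0.64 at E12.5 and at -0.60 and -0.38 at E14.5. In the same comparison Sox6 was at -1.98 and -3.54 at E12.5 and at 2.64 and 3.55 at E16.5, and Sox11 at -0.48 and -0.50 at E12.5 and at 0.77 and 1.17 at E16.5.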

How the results depend on the processing

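The 52 member results were recomputed under 681 alternatives, of which 593 kept direction and side of the threshold, 37 lost a call, 18 gained one, 27 reversed in sign, none of them a called result, and 6 moved in value with no test. The calls lost are given beside each result above. The Sox9 call between DF-like and LP-like cells, the Sox6 and Sox8 calls in muscle, and the Sox2, Sox4, Sox8 and Sox11 calls in neural classes were kept in all alternatives that gave a test.

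Signs reversed as follows, with ranges over 1 sum or pool left out. Between LM-like and EM-like cells these ran from -0.16 to 0.56 for Sox4 and from -0.21 to 0.06 for Sox11, which was 0.10 on 10x alone. Between LP-like and EP-like cells they ran from 1.5 to 5.87 for Sox10, which was 1.47 at resolution 1.2. Between EM-like and progenitor-like cells they ran from -0.19 to 0.13 for Sox4 (0.12 with all cells) and from -0.59 to 1.65 for Sox6, and Sox11 was -0.13 at resolution 1.2. In neural classes they ran from -0.16 to 1.92 for Sox5 and from -0.61 to 0.03 for Sox9 (0.33 at resolution 0.4, 0.17 on 10x alone). Between NP-like and N-like cells they ran from -0.22 to 0.05 for Sox5 (0.03 with no filter, 0.89 at resolution 1.2 and with all cells, 0.86 with Sox genes allowed, 0.02 without doublets). Over days they ran from -6.04 to 1.63 for Sox5 and from -0.72 to 1.29 for Sox9.

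Among the recomputed shares of genes called, 42 moved by over 1.5 times. With no filter, 6.72% of genes tested were called higher in LM-like than in EM-like cells, beside 12.8%. With DESeq2 the shares called higher and lower were 7.70% and 3.01% for LP-like against EP-like cells, beside 4.97% and 0.919%, and 3.27% and 2.88% between days, beside 5.44% and 4.85%. At resolution 1.2 they were 7.68% and 2.61% for LP-like against EP-like cells, 4.91% and 10.9% for EM-like against progenitor-like cells, and 1.40% higher in NP-like than in N-like cells, beside 3.06%. That last share was 1.46% with Sox genes allowed, 1.53% with all cells and 5.46% with doublets removed. On 10x alone LP-like against EP-like cells gave 0.0146% and 0% by edgeR, with 11.7% of genes at an unadjusted p under 0.05. With 1 sum or pool left out, the shares higher and lower ran from 6.32% to 12% and from 10.1% to 13.2% for LM-like against EM-like, from 2.87% to 7.60% and from 3.76% to 10.5% for DF-like against LP-like, and from 0% to 9.91% and from 0% to 4.59% for LP-like against EP-like cells. They ran from 5.76% to 21.8% and from 8.74% to 21.6% for EM-like against progenitor-like cells, from 7.05% to 13.1% and from 7.16% to 14.8% for neural classes, and from 0.388% to 6.92% and from 0.388% to 5.29% between days. The lowest values came without 10x of E14.5, except for LP-like against EP-like cells, at 0% by edgeR without the EP-like ss2 sum (5.40% of genes at an unadjusted p under 0.05), for days without the EM-like ss2 sum of E12.5, and for the share lower in LM-like cells. The cause of these moves was not tested, apart from fewer sums.

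Pool was a block in 5 of the 7 comparisons, which pairs classes within pools. By the replicate numbers of the labels no paired analysis was possible because the summed cells carry none, and the bulk groups that share them were not compared here. Bulk comparisons and their alternatives, LP-like against EP-like at resolution 0.4 (no EP-like class), and NP-like against N-like and the days on 10x alone (no residual degrees of freedom) were not run.

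Each day was measured once per platform. Levels of a few UMIs, such as those of Sox10 and Sox5, have wide intervals. The class with the highest 10x level was kept for 10 of 10 members at resolution 0.4 and for 8 at resolution 1.2.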

Other observations

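The platforms measured the same classes and days at different levels of some members. In sums that gave a ratio of ss2 to 10x CPM, Sox4 was below 1 in 13 of 13 (median 0.114, from 0.0391 to 0.496), Sox12 in 8 of 8 (median 0.330) and Sox2 in 2 of 2 (0.00994 and 0.0867). Sox8 was above 1 in both of its sums (3.73 and 7.01) and Sox5 in all 3 (median 1.76). Sox11 was below 1 in 9 of 13 (median 0.778) and Sox9 in 4 of 9 (median 1.22). Reads of the SoxC genes thus did not share 1 ratio. The cause was not tested.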
